A study of Mus musculus with 14 samples.

Results

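Social defeat was examined here across both of its behavioral outcomes: the polysome-attached mRNA of hippocampal PV neurons from 7 defeated mice was compared with that of 4 non-defeated mice. The 7 defeated libraries were the 4 labeled resilient and the 3 labeled susceptible, and the 4 non-defeated libraries were those labeled CTRL, so that 11 of the 14 libraries of the series entered the comparison. The remaining 3 libraries hold input RNA, that is, total hippocampal RNA of the non-defeated group before purification. The mean of the resilient group and the mean of the susceptible group received equal weight, so that the larger group did not set the result. All mice carried a Cre-dependent EGFP-L10a transgene (ribosomal protein L10a fused to green fluorescent protein) and PV-Cre, controls included. Each library came from the pooled left and right hippocampi of a single mouse. Defeated adult males went through chronic social defeat stress (CSDS), a series of daily attacks by CD1 aggressors with sensory contact in between, while non-defeated mice lived in pairs and met no aggressor. After CSDS, mice that spent more time near a caged aggressor than near an empty cage were called resilient and those that avoided it susceptible.

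PV neurons are fast-spiking GABAergic interneurons that contact the somata and initial segments of principal cells and so set the timing and amount of hippocampal output. Translating ribosome affinity purification (TRAP) pulls down tagged polysomes from a tissue homogenate, so that the precipitate is enriched in mRNA of the tagged cells. RNA of other cells can adhere to the precipitate and is then sequenced with it. In these data the expression of a gene by PV neurons and RNA carried over from neighboring cells cannot be told apart, and neither can fewer cells of a type and less RNA per cell.

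TRAP libraries held between 72098582 and 94726962 counts, and no pair of replicates agreed within sampling noise. In a principal component analysis the first component (22.3% of the variance) followed the numbers in the library names rather than the groups: libraries 1 to 4 lay lowest and libraries 7, 9 and 11 highest. What these numbers, which run from 1 to 11 across the groups, stand for is not given in the sources used here. Susceptible library 10 stood apart on the second (12.9%). Pvalb, which encodes the parvalbumin that names these neurons, was measured at 1507, 1548, 1265 and 1538 CPM (counts scaled to a common library size, with TMM factors) in the non-defeated libraries. In the 7 defeated libraries it ranged from 1208 to 1600 CPM with a median of 1304 CPM. The 2 groups overlapped, and input RNA held 25.4 CPM, so every TRAP library carried the label's marker far above tissue level. The log2 difference of Pvalb, defeated minus non-defeated, was -0.12 (95% interval -0.35 to 0.11, edgeR adjusted p = 0.999).

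No gene separated defeated from non-defeated mice at an adjusted p under 0.05. Of 21298 genes tested with edgeR's quasi-likelihood test, 0 passed (0%), and the smallest adjusted p was 0.314. At an unadjusted p under 0.05, 556 genes were higher in defeated mice (2.61% of those tested) and 483 were lower (2.27%), against 1065 that this threshold alone would let through in both directions together. Without susceptible library 10 these counts were 706 and 753, and without non-defeated library 1 they were 863 and 766. DESeq2, the tool of the original study, placed 10 genes higher and 3 lower at an adjusted p under 0.05 in the 11 TRAP libraries, and edgeR's likelihood ratio test placed 22 higher and 8 lower. DESeq2 and the likelihood ratio test shared 12 genes, of which 9 were higher. The median half-width of the 95% interval over all genes was 0.32 on the log2 scale, so a difference smaller than that could not be resolved for a typical gene with 7 against 4 mice.

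**Figure D1:**
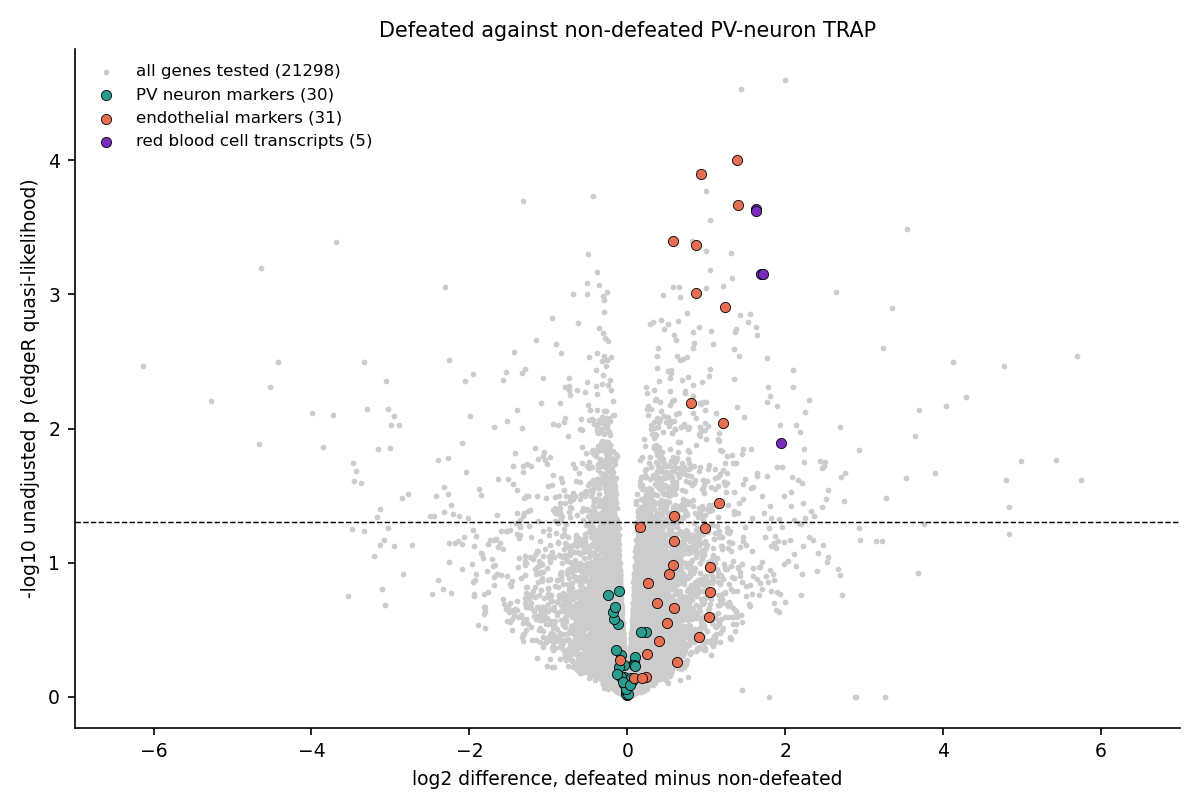
Each point is 1 of 21298 genes, with the log2 difference (defeated minus non-defeated) on the x axis and -log10 of the unadjusted p on the y axis; the dashed line marks 0.05. Endothelial markers (31 genes) spread to the right with 11 of them above the line, all 5 red blood cell transcripts lie to the right and above the line, and the 30 PV neuron markers stay near 0 and below the line.

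Complete separation of the libraries gave a second description of the same values. The number of genes that a random arrangement of the libraries would separate was not computed. The counts therefore do not measure an effect of defeat. In 55 genes all 7 defeated libraries lay above all 4 non-defeated libraries (0.258% of genes tested), and in 26 genes all lay below (0.122%). With fewer libraries to separate, these counts were 81 and 47 without susceptible library 10 and 135 and 85 without non-defeated library 1. The genes above differed by a median of 0.87 on the log2 scale, and those below by a median of -0.29. Genes were then named by rule: the 12 protein-coding genes per direction with the smallest p among those without overlap, with an unadjusted p under 0.05 and with a mean of at least 1 CPM. The rule was met by 31 genes in the higher direction and 15 in the lower. Since the rule used this contrast, the values of the named genes are descriptive.

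Of the 4 largest differences among the 12 higher genes, 3 belonged to the Ly6 family, small glycolipid-anchored surface proteins of which Ly6a and Ly6c1 are abundant on brain endothelium. Ly6c1 (chromosome 15, 75044018 to 75048830, minus strand, GRCm38) was at 3.47, 4.20, 5.48 and 5.26 CPM in the non-defeated libraries. It was at 9.72, 6.16, 6.98 and 15.9 CPM in the resilient libraries and at 19.0, 10.9 and 14.9 CPM in the susceptible libraries. Every defeated mouse therefore stood above every control, with the lowest defeated value in resilient library 5. The log2 difference was 1.38 (SE 0.26, edgeR adjusted p = 0.510).

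Ly6a, also known as Sca-1 and located on the same strand at 74994877 to 74998031 of chromosome 15, was at 3.10, 2.56, 3.67 and 3.47 CPM in non-defeated mice. Defeated libraries ranged from 3.86 to 12.8 CPM with a median of 7.95 CPM, and the log2 difference was 1.41 (SE 0.29). Ly6c2, the near copy of Ly6c1 at 75108158 to 75111970, was at 0.725, 0.998, 0.845 and 1.24 CPM in non-defeated mice and between 1.25 and 3.96 CPM in defeated mice (log2 difference 1.31, SE 0.29). For all 3 genes the susceptible group lay further from the controls than the resilient group: 1.70 against 1.07 for Ly6c1, 1.78 against 1.04 for Ly6a and 1.64 against 0.99 for Ly6c2, each on the log2 scale and against the same 4 controls. The difference of susceptible and resilient did not pass the adjusted threshold for any of them (edgeR adjusted p between 0.210 and 0.283), and 1.89% of all genes tested did pass in that comparison. Most reads could be assigned to a single copy: only 2.29% of the 150-base windows of Ly6c1 transcripts also occur letter for letter in Ly6c2, and 0% of those of Ly6a occur in Ly6c1.

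The upstream sequences of Ly6c1 and Ly6c2 are shown because these neighboring genes were both higher and carry similar sequence before their start sites. Each is the 250 bases before the outermost RefSeq start site (GRCm38.p6, minus strand, written 5′ to 3′), at chr15:75048838-75049087 for Ly6c1 and chr15:75111972-75112221 for Ly6c2. Capitals mark the longest run of letters that both share, 20 bases that begin 40 bases before the start of Ly6c1 and 65 bases before that of Ly6c2.
Ly6c1: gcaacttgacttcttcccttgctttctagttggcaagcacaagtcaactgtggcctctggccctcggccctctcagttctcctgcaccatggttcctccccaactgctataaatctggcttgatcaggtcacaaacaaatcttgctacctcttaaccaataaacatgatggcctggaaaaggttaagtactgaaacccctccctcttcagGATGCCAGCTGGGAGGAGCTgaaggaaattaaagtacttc
Ly6c2: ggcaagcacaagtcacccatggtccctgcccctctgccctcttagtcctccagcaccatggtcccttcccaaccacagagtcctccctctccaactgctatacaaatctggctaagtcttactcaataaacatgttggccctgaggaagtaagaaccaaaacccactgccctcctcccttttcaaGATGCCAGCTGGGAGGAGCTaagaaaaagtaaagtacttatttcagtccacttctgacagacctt
Neither window holds the core of a glucocorticoid response element (ACANNNTGT), a cAMP response element (TGACGTCA) or the CACGTG form of the E-box, searched on both strands. Other forms of the E-box were not searched. Among all 32851 promoters of the table, which span 250 bases before to 50 after the start, these letters occur in 6.85%, 1.79% and 7.15%. The 9 of the 12 higher genes with an entry held none of the 3 motifs in their 16 promoters.

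Pglyrp1, an innate immune protein that binds bacterial peptidoglycan, had the smallest p of the higher genes that were named. Non-defeated libraries held 0.655, 0.510, 0.597 and 0.323 CPM. Resilient libraries held 1.09, 0.932, 1.09 and 1.45 CPM and susceptible libraries 2.09, 1.35 and 1.80 CPM. No library of either defeated group reached down to the controls, and the gene was scarce throughout, with 23 to 152 counts per TRAP library. Its log2 difference was 1.44 (95% interval 0.92 to 1.95, edgeR adjusted p = 0.314).

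Transcription factors and regulators of the endothelium formed a second set. Klf2, a factor that endothelial cells induce under blood flow, was at 3.81, 4.14, 4.22 and 4.24 CPM in non-defeated mice, a narrow range. Defeated libraries ranged from 5.41 to 10 CPM with a median of 5.97 CPM, so that the nearest defeated library was above the highest control by more than the controls differed among themselves (log2 difference 0.82, SE 0.18). Sox18, a SoxF factor of blood and lymph vessels, was at 4.63, 5.32, 4.21 and 4.98 CPM in non-defeated mice and at 5.88 to 12.5 CPM in defeated mice (log2 difference 0.87, SE 0.19). Hdac7, a class IIa histone deacetylase needed for vessel integrity, was at 2.05, 2.04, 1.85 and 1.66 CPM against 2.21 to 4.07 CPM (log2 difference 0.66, SE 0.16). Unlike the Ly6 genes, Hdac7 was further from the controls in resilient mice (0.77) than in susceptible mice (0.55).

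Secreted and membrane proteins made up the rest. Itm2a, a membrane protein abundant in brain endothelium, was at 3.56, 6.26, 5.29 and 6.22 CPM in non-defeated mice and at 7.47 to 14.4 CPM in defeated mice. Its log2 difference was 0.94 (SE 0.18), 1.01 in resilient and 0.87 in susceptible mice. Egfl7, which endothelial cells secrete into the vessel wall, was at 6.55, 7.06, 5.02 and 7.02 CPM against 8.12 to 12.2 CPM (log2 difference 0.59, SE 0.13).

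Igfbp7, a secreted binding protein for insulin-like growth factors, was at 2.22, 2.98, 3.18 and 2.74 CPM in non-defeated mice and at 3.37 to 7.98 CPM in defeated mice (log2 difference 0.99, SE 0.20). Edn3, the precursor of the vasoactive peptide endothelin 3, was at 0.753, 0.987, 1.28 and 1.081 CPM against 1.28 to 3.13 CPM (log2 difference 1.004, SE 0.22), and its highest control almost touched its lowest defeated library. Adgre5, the adhesion receptor CD97 of leukocytes, was at 0.446, 0.737, 0.626 and 0.758 CPM against 0.897 to 1.67 CPM (log2 difference 1.04, SE 0.22). Igfbp7, Adgre5, Egfl7 and Hdac7 overlap genes on the opposite strand (Polr2b, Ddx39, Agpat2 and Slc48a1), and the library kit did not keep strand, so reads in the shared stretch cannot be told apart.

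**Figure D2:**
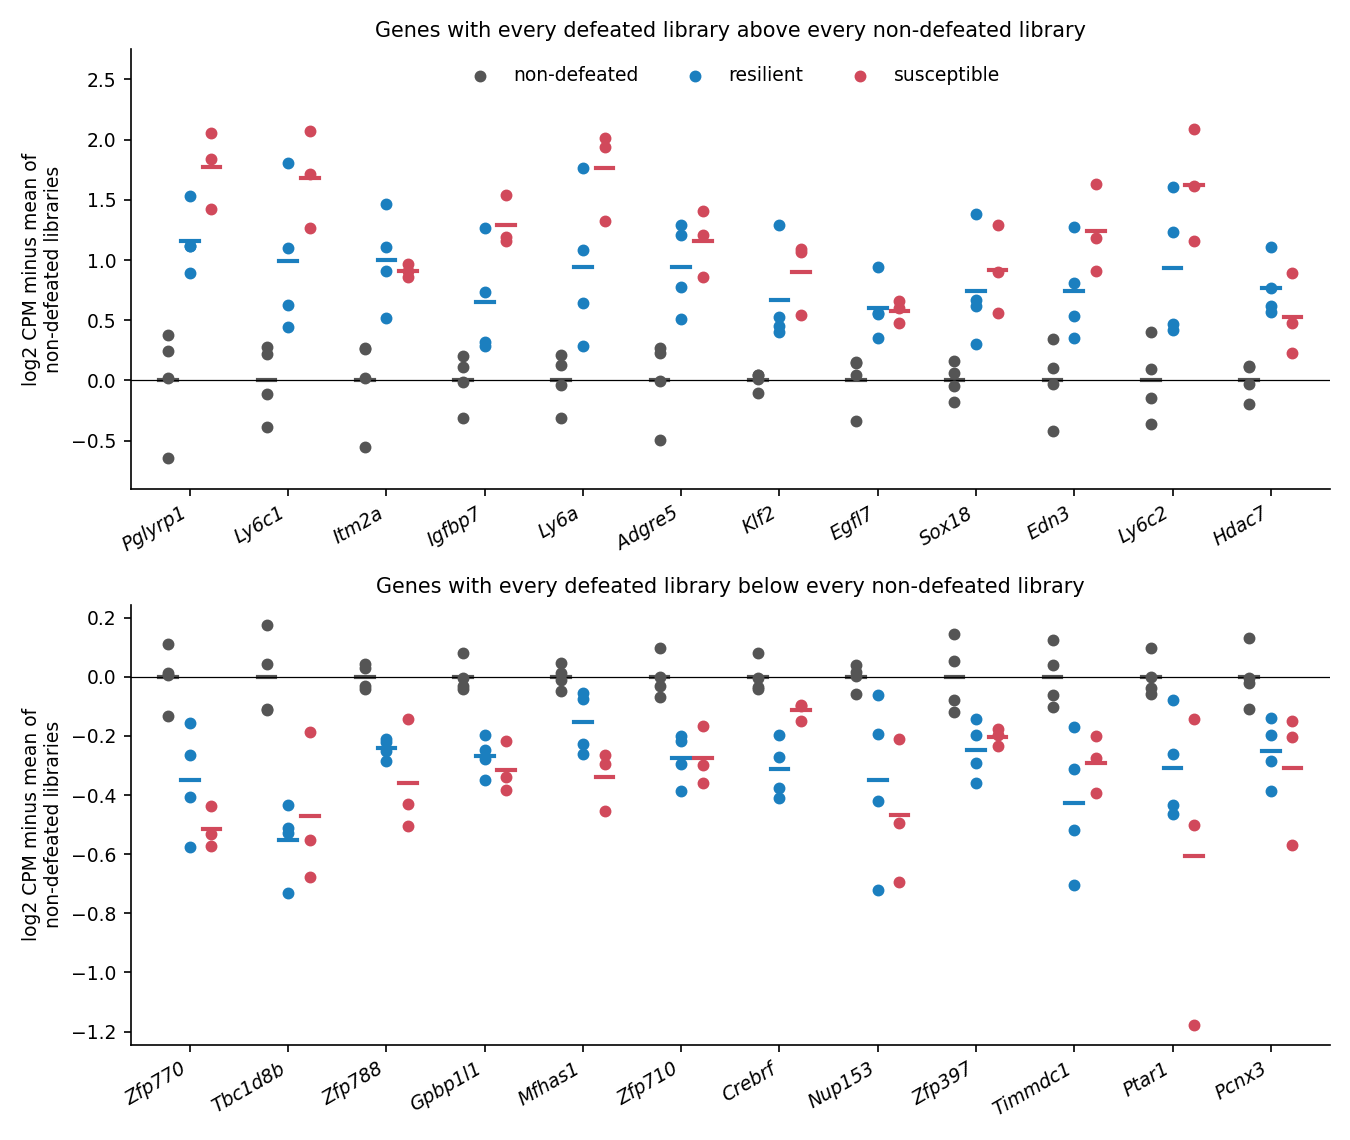
Log2 CPM of each library minus the mean of the 4 non-defeated libraries (y axis) for the 12 named genes in each direction (x axis); points are libraries, short lines are group means. In the upper panel all resilient and susceptible points lie above all non-defeated points, with log2 differences of 0.59 to 1.44, and in the lower panel all lie below, with differences of -0.51 to -0.21.

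Within the defeated group the order of the libraries was uneven. Resilient library 8 and susceptible library 2 were each the highest of the 7 defeated libraries in 5 of the 12 higher genes, and resilient library 5 was the lowest in 6. For 9 of the 12 the susceptible difference exceeded the resilient one, and 0 of the 12 passed the test of that difference. The mean in non-defeated TRAP was above that in input for 6 of the 12, against 48.2% of all genes tested. Among all 55 genes with every defeated library above, this held for 18 (32.7%). The median log2 ratio of non-defeated TRAP to input was -0.35 in those 55 and -0.04 over all genes.

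A list of 31 endothelial markers was chosen with earlier results of these data known. It holds 5 of the 12 named higher genes (Ly6c1, Itm2a, Ly6a, Egfl7 and Sox18), so it gives no separate support for them. Of its members, 30 had a log2 difference above 0 and 0 passed the adjusted threshold. At an unadjusted p under 0.05, 11 were higher and 0 lower, against 2.61% and 2.27% of all genes tested. The list's median was 0.60, against -0.0038 over all genes, and it was 0.64 in resilient and 0.61 in susceptible mice against their shared controls. The 11 were Ly6c1, Itm2a, Ly6a, Egfl7, Sox18, Eng, Cldn5, Sox17, Emcn, Adgrf5 and Esam. Of these, 6 had all defeated libraries above all controls, against 0.258% of all genes tested. With 1 library left out the number that were higher ran from 9 (without non-defeated library 1 or resilient library 8) to 17 (without non-defeated library 11). Cldn5, the main claudin of the blood-brain barrier's tight junctions, was at 2.13, 3.34, 3.25 and 3.07 CPM in non-defeated mice, and defeated libraries ranged from 2.83 to 11.97 CPM with a median of 6.67 CPM. All but resilient library 5 stood above the controls, and the log2 difference was 1.24 (SE 0.31, edgeR adjusted p = 0.611).

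The remaining 20 endothelial markers did not pass the unadjusted threshold. Slc16a1, a lactate transporter also used outside vessels, was the 1 member below 0, at -0.09 (95% interval -0.40 to 0.21). Bsg, a chaperone of lactate transporters, accounted for most of the list's summed level, at 332 to 371 CPM in non-defeated and 327 to 437 CPM in defeated libraries. Without Bsg the summed endothelial level was 67.5 to 104 CPM in non-defeated, 96.7 to 182 CPM in resilient, 106 to 147 CPM in susceptible and 94.8 to 98.8 CPM in input libraries. Summed over the list, resilient library 5 thus lay within the range of the controls and the other 6 defeated libraries above it.

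Of the 31 markers 5 (Cdh5, Tie1, Robo4, Erg and Vwf) had 0 counts in at least 1 TRAP library, and the other 26 were detected in every TRAP library. With the log2 ratio of summed endothelial markers to Pvalb as a covariate in the 11 TRAP libraries, the list's median was -0.07 and 0 members were higher at an unadjusted p under 0.05. The list enters its own covariate, so a median near 0 follows from the construction of this fit, and 5 of the named genes are members of the list. The ratio itself was -1.87 to -1.59 in the controls, and all defeated libraries but susceptible library 4 (-1.69) lay above them. For genes outside the list, too, the fit therefore takes up part of any difference that goes with defeat. With Bsg left out of the ratio, a choice made after the data were seen, the median was 0.04 and 3 members were higher. Pglyrp1 (log2 difference 1.04), Igfbp7 (0.63) and Adgre5 (0.83) kept an unadjusted p under 0.05 under the first of these covariates and again without Bsg. The other 9 named genes had differences of 0.24 to 0.56 under the first covariate, none at an unadjusted p under 0.05, and Ly6c1, Ly6a and Itm2a passed it again once Bsg was left out.

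Mural cells, the pericytes and smooth muscle cells of the vessel wall, were represented by 9 markers with a median of 0.42, which was 0.25 without resilient library 8. Rgs5, a regulator of G protein signaling typical of pericytes, was at 5.73, 7.67, 7.37 and 7.13 CPM in non-defeated mice and at 7.42 to 13.7 CPM in defeated mice. Resilient library 5 was again the one within the controls' range, and the log2 difference was 0.58 (SE 0.14, edgeR adjusted p = 0.544). Kcnj8, the pore subunit of the pericyte KATP channel, differed by 0.79 (SE 0.29) at a low level of 0.58 ± 0.16 CPM (mean ± SD) in non-defeated and 0.998 ± 0.40 CPM in defeated mice. Without non-defeated library 1 the unadjusted p of Kcnj8 was 0.0537. Of the 9 markers, 7 lay above 0 and 2 below. Pdgfrb, the receptor that marks pericytes, lay below 0, at 1.58 ± 1.26 CPM against 1.31 ± 0.53 CPM. Its control mean leaned on non-defeated library 11, at 3.30 CPM where the other controls held 0.446 to 1.70 CPM. With 1 library left out the difference of Pdgfrb ran from -0.64 to 0.31.

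**Figure D3:**
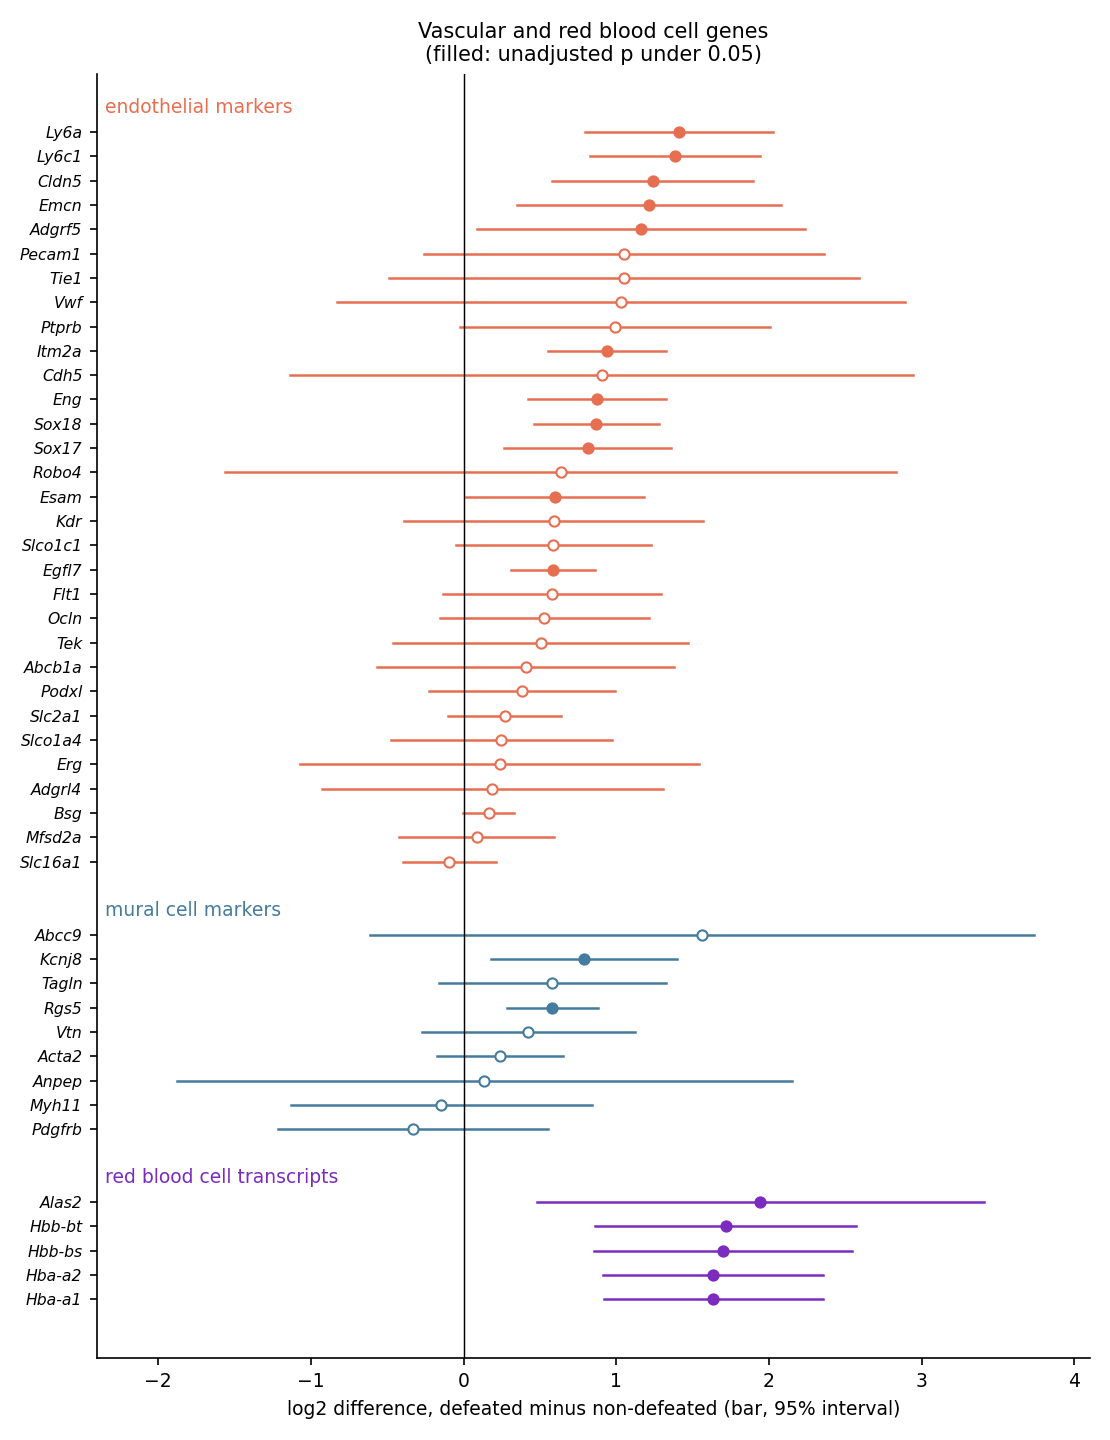
Log2 difference (defeated minus non-defeated, x axis) of each marker of endothelial cells (31), mural cells (9) and red blood cells (5), with its 95% interval; filled points have an unadjusted p under 0.05. Filled points number 11, 2 and 5 in these lists, all to the right of 0, and the intervals of the low-count members such as Robo4, Vwf and Anpep reach well to the left of it.

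Red blood cell transcripts were higher in the susceptible mice and in resilient library 5. In their summed level the other resilient libraries lay within the range of the controls. All 5 (4 globin genes and Alas2, the erythroid enzyme that starts heme synthesis) had an unadjusted p under 0.05, with a median log2 difference of 1.70. Of all genes tested, 2.61% were higher at that threshold. Hba-a1 was at 51.2, 53.1, 37.4 and 72.5 CPM in non-defeated mice and at 82.6, 186, 42.7 and 50.8 CPM in resilient mice, 2 of which lay within the controls' range. Susceptible libraries held 277, 295 and 344 CPM, above every other TRAP library. The log2 difference was 1.63 for both outcomes together (SE 0.34, edgeR adjusted p = 0.510), 0.76 for resilient and 2.51 for susceptible mice, and the susceptible minus resilient difference passed the test (1.76, edgeR adjusted p = 0.0411). Summed over the 5 genes, levels were 116 to 243 CPM in non-defeated, 129 to 599 CPM in resilient, 890 to 1239 CPM in susceptible and 780 to 987 CPM in input libraries. Hba-a1 and Hba-a2 share 57% and 73.1% of their 150-base transcript windows, so their counts are not separate measurements.

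Choroid plexus and ependymal markers (7 genes) had a median of 0.40, with 7 members above 0. At an unadjusted p under 0.05, 2 were higher, against 2.61% of all genes tested. Ttr, the thyroxine carrier made by the choroid plexus, was at 271, 212, 159 and 211 CPM in non-defeated mice. It was at 146 CPM in resilient library 3 and between 362 and 604 CPM in the other 6 defeated libraries (log2 difference 0.84, SE 0.23). Folr1, a folate receptor of the same epithelium, differed by 0.83 (SE 0.33), and its unadjusted p was 0.0508 to 0.0930 with non-defeated library 1, 6 or 9, resilient library 8 or susceptible library 10 left out. Without susceptible library 10 the list's median was 0.14, and 1 to 3 members were higher with any 1 library left out. By library number the median was -0.19 among libraries 1 to 6 and 0.91 among libraries 7 to 11, so its side depended on that split. Of 7 fibroblast and meningeal markers, Igf2, an insulin-like growth factor of the meninges, was higher (log2 difference 0.64, SE 0.22). The list's median was 0.20 and had no steady side: it was -0.03 and 0.03 without non-defeated library 1 and 6, 0.09 without susceptible library 10, 0.34 without susceptible library 4 and 0.57 without non-defeated library 11.

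**Figure D4:**
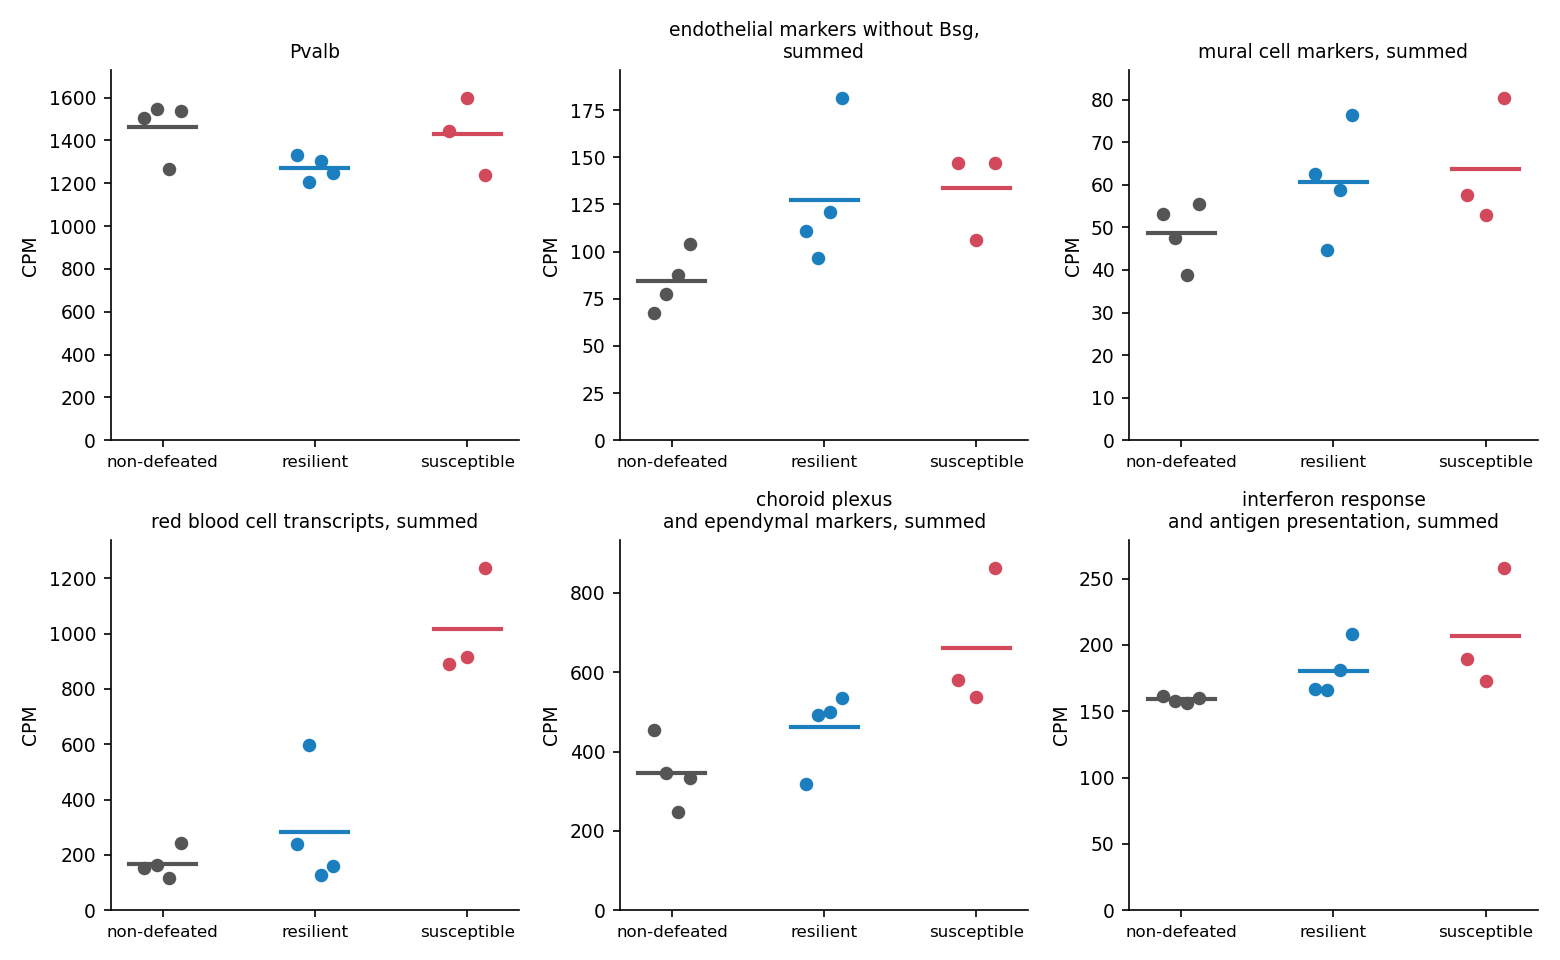
CPM of Pvalb and summed CPM of 5 gene lists (y axes, from 0) in the non-defeated, resilient and susceptible libraries (x axes); points are libraries and lines are group means. Pvalb overlaps between the groups, 6 of 7 defeated libraries exceed the controls for the endothelial list without Bsg, and red blood cell transcripts are at 890 to 1239 CPM in susceptible mice against 116 to 243 CPM in non-defeated mice.

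Markers of other neurons and glia did not separate the groups. None of 14 markers of other interneurons, 16 of excitatory neurons, 14 of thalamic neurons, 13 of astrocytes, 17 of the oligodendrocyte lineage or 13 of microglia passed an unadjusted p of 0.05. Their medians were 0.07, 0.03, -0.23, 0.12, -0.0024 and 0.11. Astrocyte markers had 11 members above 0 and 2 below, and microglia markers 10 above and 3 below. A typical interval in these 2 lists reached 0.39 and 0.55 to either side, so smaller differences would have been missed. The microglia median was 0.0051 in resilient and 0.40 in susceptible mice. Slc17a7, the vesicular glutamate transporter of excitatory neurons, differed by 0.01 (SE 0.16) at 169 ± 25.4 CPM in non-defeated and 171 ± 39.4 CPM in defeated mice, and input held 624 CPM. Thalamic markers differed more between mice than between groups: Tcf7l2 was at 132 CPM in resilient library 7 and between 2.95 and 5.02 CPM in the other resilient libraries, and the median was 0.25 in resilient but -0.93 in susceptible mice. The interval of a typical thalamic marker reached 1.67 to either side.

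Genes of the interferon response and antigen presentation, which vessels and glia also express, stood next to the vascular lists. Of 18 genes, 16 lay above 0. At an unadjusted p under 0.05, 5 were higher and 0 lower, against 2.61% and 2.27% of all genes tested. The median was 0.38, with 0.35 in resilient and 0.42 in susceptible mice against the same controls. Without susceptible library 10, the highest of the 11, it was 0.22, and with any 1 library left out 4 to 8 members were higher (8 without resilient library 5). Bst2 (tetherin, which holds enveloped virus at the cell surface) was at 0.809, 0.618, 0.291 and 0.716 CPM in non-defeated mice. Defeated libraries held 0.796 to 2.85 CPM, with resilient library 3 below the highest control (log2 difference 1.23, SE 0.31, edgeR adjusted p = 0.616). Isg15, an interferon-induced ubiquitin-like protein, differed by 0.84 (SE 0.25) and was at 0.917 ± 0.20 CPM against 1.62 ± 0.49 CPM. H2-K1 (0.61), Ifi27 (0.37) and Ifitm3 (0.57) completed the 5, while B2m, the light chain of class I molecules, differed by 0.21 (SE 0.12) without passing. The median of the list was 0.04 with the endothelial covariate, under which 0 of the 18 were higher at an unadjusted p under 0.05. That covariate was itself higher in all defeated libraries but susceptible library 4 than in any control. Such a fit takes up part of any difference that goes with defeat, so it cannot show where the list's difference came from.

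Of the genes that do not encode protein, 2 met the rule and both were higher. Gm20412 lies on the strand opposite to Tgm2, a transglutaminase, and was at 1.02, 0.933, 0.874 and 1.05 CPM in non-defeated and 1.29 to 2.74 CPM in defeated mice (log2 difference 1.05, SE 0.24). Without strand, its reads and those of Tgm2 cannot be told apart. Hsp25-ps1 is a pseudogene of the small heat shock protein Hspb1, and 83.8% of its 150-base windows occur in Hspb1 transcripts. Its log2 difference was 0.59 (SE 0.19, edgeR adjusted p = 0.827), beside 0.63 (SE 0.18) for Hspb1, which was at 7.92, 7.82, 6.79 and 8.63 CPM in non-defeated and 8.43 to 15.9 CPM in defeated mice.

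The 12 genes that were lower were of a different kind: more abundant on the whole, with smaller differences, and with no member of a vascular list among them. Zfp770, a zinc finger protein, was at 18.6, 16.9, 18.7 and 20.0 CPM in non-defeated mice. Resilient libraries held 12.4, 13.96, 15.4 and 16.6 CPM and susceptible libraries 12.4, 13.7 and 12.8 CPM, with no overlap. The log2 difference was -0.43 (SE 0.09, edgeR adjusted p = 0.510), and DESeq2 placed it under the adjusted threshold (adjusted p = 0.0388). Zfp710 and Zfp397, which also encode zinc finger proteins, differed by -0.27 (SE 0.08) and -0.23 (SE 0.07).

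Zfp788, another zinc finger gene, was at 28.1, 27.8, 26.7 and 26.5 CPM in non-defeated mice, which differed little among themselves, and at 19.2 to 24.7 CPM in defeated mice (-0.30, SE 0.07). Tbc1d8b, of the family of Rab GTPase-activating proteins, had the largest difference of the 12 at -0.51 (SE 0.12), from 5.01, 4.51, 4.50 and 5.49 CPM to 2.93 to 4.27 CPM. Nup153, a protein of the nuclear pore basket, was at 15.7, 16.8, 16.6 and 16.4 CPM and between 9.94 and 15.7 CPM in defeated mice (-0.39, SE 0.12), with resilient library 8 just below the controls. Timmdc1, an assembly factor of respiratory complex I, was at 8.12, 9.49, 8.94 and 8.35 CPM against 5.34 to 7.74 CPM (-0.35, SE 0.12). In 4 of the 12 the mean in non-defeated TRAP was above that in input, by the most for Timmdc1 at 8.72 ± 0.62 CPM against 4.14 CPM. Among all 26 genes with every defeated library below, this held for 15 (57.7%), against 48.2% of all genes tested.

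Ptar1 (-0.43), a prenyltransferase-like protein, owed part of its size to susceptible library 4, which held 2.95 CPM where the other defeated libraries held 4.71 to 6.32 CPM and the controls 6.41 to 7.14 CPM. Gpbp1l1 (-0.29), Pcnx3 (-0.28) and Mfhas1 (-0.24) had standard errors of 0.07, 0.10 and 0.07, and each overlaps a gene on the other strand. The unadjusted p of Pcnx3 was 0.0574 without non-defeated library 9. In 5 of the 12 susceptible mice lay above resilient mice, in 7 below, and 0 passed the test of that difference. Resilient library 8 was the highest defeated library in 6 of the 12, and resilient library 3 the lowest in 5.

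Crebrf, a factor that binds and destabilizes the stress-related CREB3, was at 39.4, 42.7, 39.3 and 40.3 CPM in non-defeated mice. Resilient libraries held 31.1, 35.3, 30.4 and 33.4 CPM and susceptible libraries 37.7, 37.8 and 36.4 CPM, so the susceptible mice stood between the other groups. The log2 difference was -0.21 (SE 0.06), -0.31 in resilient and -0.11 in susceptible mice. Its upstream sequence is shown because it was the only promoter with a searched motif among the 12 promoters of the 10 lower genes that had an entry. It holds the E-box letters CACGTG at 2 positions, 125 and 14 bases before the start site (capitals, chr17:26715400-26715649, GRCm38.p6, plus strand, 5′ to 3′).
Crebrf: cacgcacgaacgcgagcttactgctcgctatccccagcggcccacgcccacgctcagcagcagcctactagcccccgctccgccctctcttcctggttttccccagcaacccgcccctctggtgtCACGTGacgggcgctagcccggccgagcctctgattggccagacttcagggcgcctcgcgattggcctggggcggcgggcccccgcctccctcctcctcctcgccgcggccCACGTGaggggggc
This is a description of letters, and 8.09% of the 27025 genes of the table have a promoter with CACGTG.

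**Figure D5:**
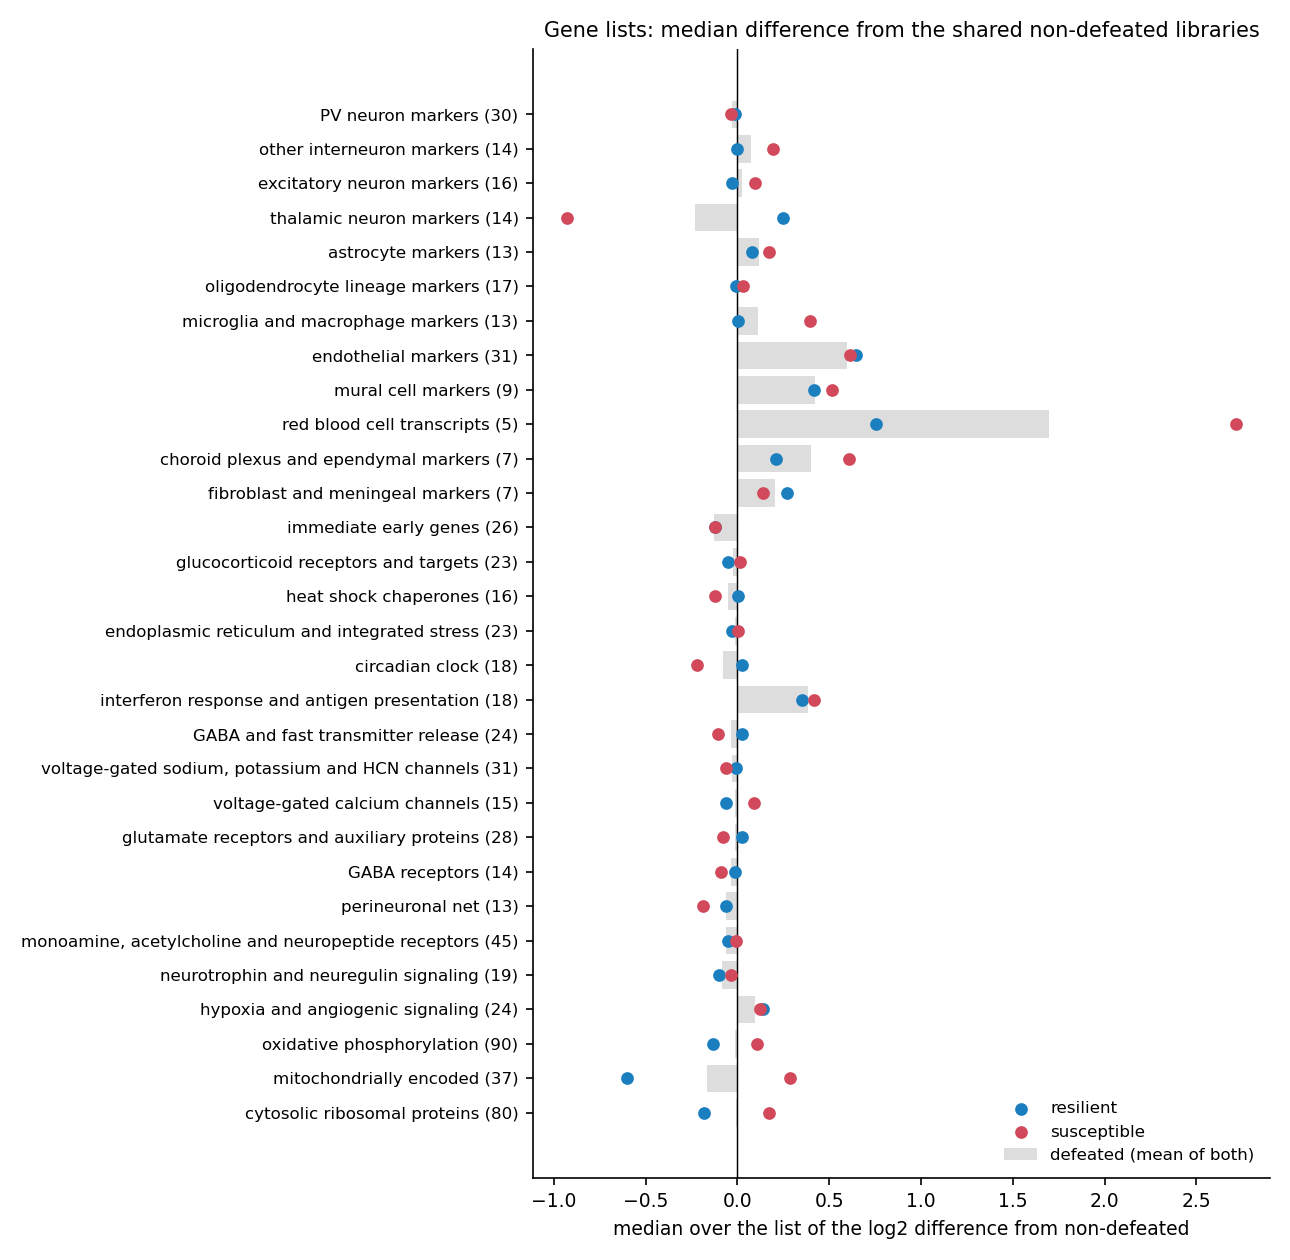
Median log2 difference from non-defeated over each gene list (x axis; number of genes tested in brackets); bars give both defeated groups with equal weight, points the resilient and susceptible groups against the same 4 controls. The longest bars to the right are those for red blood cell (1.70), endothelial (0.60), mural (0.42), choroid plexus (0.40) and interferon (0.38) genes, while those of PV markers, channels, receptors, transmitter release and neurotrophins lie between -0.08 and -0.01.

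Immediate early genes, which follow neuronal activity, gave small differences. Of 26 genes, 5 lay above 0 and 21 below. At an unadjusted p under 0.05, 3 were lower and 1 higher, against 2.27% and 2.61% of all genes tested. With any 1 library left out 1 to 5 were lower. The median over the list was -0.13. Medians of single libraries had an SD of 0.14 within groups, which describes single libraries and not the difference of group means. Susceptible library 10 lay above all controls in its median over the list. Homer1, a scaffold of postsynaptic glutamate receptors, was at 52.2, 54.9, 64.4 and 68.6 CPM in non-defeated mice and at 43.6 to 57.4 CPM in defeated mice (log2 difference -0.25, SE 0.09). Dusp1, a MAP kinase phosphatase, was at 75.9, 86.1, 79.8 and 85.2 CPM against 52.5 to 83.7 CPM (-0.27, SE 0.11), and Nr4a1, an orphan nuclear receptor, differed by -0.42 (SE 0.17). Fos itself was at 38.0 ± 4.6 CPM against 31.7 ± 5.8 CPM, a log2 difference of -0.28 (95% interval -0.55 to 0.0023) that did not pass. Scg2, the precursor of secretogranin peptides, was the member that was higher (0.22, SE 0.08), at 96.8 to 124 CPM in non-defeated and 114 to 143 CPM in defeated libraries. The unadjusted p of Homer1 was 0.0793 without non-defeated library 11 and 0.0511 without non-defeated library 9, and that of Scg2 was 0.0554 without non-defeated library 11. For Dusp1 it was 0.0504 to 0.0589 with non-defeated library 6 or 11 or susceptible library 2 or 10 left out.

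Corticosteroid signaling showed no common direction. Nr3c1, the glucocorticoid receptor, was at 48.3 ± 5.9 CPM in non-defeated and 47.3 ± 10.2 CPM in defeated mice (log2 difference -0.03, SE 0.15). Of 23 receptors and targets, 11 lay above 0, and the median was -0.03. At an unadjusted p under 0.05, 4 were higher and 1 lower, against 2.61% and 2.27% of all genes tested. With any 1 library left out 2 to 5 were higher (2 without susceptible library 10, for example) and 0 to 3 lower. Lcn2, which encodes the iron-binding lipocalin 2, had the largest value (4.04, SE 1.28), but it was at 0 to 0.112 CPM in non-defeated mice and between 0 and 4.91 CPM in defeated mice, with susceptible library 4 at 0 and susceptible library 2 highest. Without susceptible library 2 the difference of Lcn2 was 2.85. Cdkn1a, a cell cycle inhibitor, was higher (0.36, SE 0.13) through the susceptible mice, with 0.08 in resilient and 0.65 in susceptible mice, and its unadjusted p was 0.0548 without non-defeated library 11. Fam107a (0.32) and Arrdc2 (0.46) were the other 2 that were higher, and Dusp1 was the member that was lower.

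Protein folding and the unfolded protein response were likewise near 0. Among 16 heat shock chaperones Hspb1 was the 1 gene past an unadjusted p of 0.05, and the median was -0.05. Of 23 genes of endoplasmic reticulum and integrated stress 0 passed, with a median of -0.02. Of 18 clock genes, 16 lay below 0 with a median of -0.08, which came from 0.03 in resilient and -0.22 in susceptible mice. Summed clock levels were 860 to 1003 CPM in susceptible, 1014 to 1474 CPM in resilient and 1008 to 1298 CPM in non-defeated libraries, so the susceptible sums were the lowest. In this list Nr1d2, the REV-ERB beta repressor, was lower (-0.38, SE 0.13). Nr1d2 was at 116, 118, 165 and 169 CPM in non-defeated mice. The values were 109 to 162 CPM in resilient and 75.7 to 99.1 CPM in susceptible mice, so the susceptible libraries lay below all others (edgeR adjusted p of the susceptible minus resilient difference 0.0530). The unadjusted p of defeated against non-defeated mice was 0.0539 without non-defeated library 11.

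The genes that make PV neurons what they are did not part the groups. None of 30 PV neuron markers passed an unadjusted p of 0.05 in either direction, their median was -0.03, and their log2 differences ran from -0.25 to 0.24. A typical interval reached 0.32 to either side, so that differences of that size would have been missed. Gad1, which makes GABA from glutamate, was at 1316, 1518, 1926 and 1513 CPM in non-defeated mice and at 1121 to 1882 CPM in defeated mice (log2 difference -0.05, SE 0.12). Of 24 genes of GABA handling and fast transmitter release, Cplx2, a complexin that clamps vesicle fusion, was higher (0.25, SE 0.11), with -0.06 in resilient and 0.56 in susceptible mice. For Cplx2 the susceptible minus resilient difference passed the test (0.63, edgeR adjusted p = 0.0396), and the difference between defeated and non-defeated mice had an unadjusted p of 0.0651 to 0.176 with non-defeated library 9 or 11, resilient library 5 or 8 or susceptible library 2 left out.

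Excitability genes had list medians near 0, while single genes were only loosely bounded. Of 31 sodium, potassium and HCN channel genes and of 15 calcium channel genes, 0 passed an unadjusted p of 0.05, with medians of -0.03 and -0.01. Their log2 differences ran from -0.55 to 0.54 and from -0.15 to 0.28. A typical interval reached 0.29 and 0.40 to either side, so smaller differences would have been missed. For 1 of the 31 the susceptible minus resilient difference passed an edgeR adjusted p of 0.05, against 1.89% of all genes tested. Scn1a, the sodium channel subunit on which fast spiking depends, was at 109 ± 3.4 CPM in non-defeated and 109 ± 17.6 CPM in defeated mice, equal means with a wider spread in defeated mice. Cacna1a, the pore of P/Q-type calcium channels, differed by 0.0048 (95% interval -0.21 to 0.22).

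Of the receptor genes 2 were lower, a share close to the 2.27% of all genes tested. Of 28 glutamate receptor and auxiliary genes 0 passed, with a median of -0.01, and Gria1 differed by 0.06 (SE 0.13). Of 14 GABA receptor genes, Gabra3, the alpha 3 subunit of GABA-A receptors, was lower (-0.35, SE 0.16), at 17.6 ± 3.8 CPM against 14.2 ± 3.2 CPM with overlap, and its unadjusted p was 0.0539 to 0.171 with any of 7 libraries left out (non-defeated 9 and 11, resilient 3, 5 and 7, susceptible 2 and 10). Of 45 receptors for monoamines, acetylcholine and peptides, Chrm3, a muscarinic receptor coupled to Gq, was lower (-0.72, SE 0.31), at 0.948, 1.57, 1.22 and 1.39 CPM against 0.212 to 1.45 CPM. Its susceptible difference was -1.07 and its resilient one -0.38. Its unadjusted p was 0.0515 to 0.102 with non-defeated library 6, 9 or 11, resilient library 3 or 7 or susceptible library 2 left out.

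None of the 13 genes of the perineuronal net, the matrix that wraps PV neurons, passed, and Acan, its core proteoglycan, was at 2.53 ± 0.30 CPM against 2.42 ± 0.44 CPM. None of 19 neurotrophin and neuregulin genes passed, and Bdnf was at 8.13 ± 0.61 CPM against 9.38 ± 2.40 CPM. Of 24 hypoxia and angiogenic genes, 1 was higher and 1 lower at an unadjusted p under 0.05, and the median was 0.10. These shares are near the 2.61% and 2.27% of all genes tested. Epas1, a hypoxia-inducible factor that endothelial cells express, was higher (0.47, SE 0.20). Egln1, an oxygen-sensing hydroxylase, was lower (-0.16, SE 0.07). Epas1 was at 5.67 to 10.1 CPM in non-defeated and 5.67 to 14.4 CPM in defeated libraries. Its unadjusted p was 0.0535 to 0.135 with any of 6 libraries left out (non-defeated 1 and 6, resilient 5 and 8, susceptible 4 and 10). That of Egln1 was 0.0537 to 0.168 with any of 7 left out (non-defeated 6 and 11, resilient 5, 7 and 8, susceptible 4 and 10).

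Energy metabolism and translation averaged near 0, with the list medians of the outcomes on opposite sides of the controls that they share. For oxidative phosphorylation single libraries overlapped. Its library medians ran from -0.16 to 0.13 in non-defeated, -0.21 to -0.02 in resilient and -0.10 to 0.27 in susceptible mice. Only libraries 1, 2, 4 and 6 lay above 0, so the values also went with the library numbers. Of 90 nuclear genes of oxidative phosphorylation, 1 was higher at an unadjusted p under 0.05 (Ndufa4l2, 0.53, SE 0.25, unadjusted p 0.0661 to 0.148 without non-defeated library 6, 9 or 11, resilient library 3 or 8 or susceptible library 10) and 0 were lower, and the median was -0.01. That median was -0.13 in resilient and 0.11 in susceptible mice. Of all genes tested, 2.61% were higher and 2.27% lower at an unadjusted p under 0.05. For 4 of the 90 the susceptible minus resilient difference passed an edgeR adjusted p of 0.05, against 1.89% of all genes tested. Of 80 cytosolic ribosomal protein genes 0 passed, with a median of -0.0048 that came from -0.18 in resilient and 0.17 in susceptible mice. For 19 of the 80 the susceptible minus resilient difference passed an edgeR adjusted p of 0.05, against the same 1.89% of all genes. Library medians of the ribosomal list did not overlap between the outcomes, at -0.23 to -0.13 in resilient and 0.04 to 0.27 in susceptible mice. Both outcomes overlapped with the non-defeated libraries, at -0.20 to 0.18. The 37 genes encoded by the mitochondrial genome had a median of -0.16, with -0.60 in resilient and 0.29 in susceptible mice. These transcripts were scarce in TRAP. They summed to 116 to 362 CPM in non-defeated, 93.3 to 218.5 CPM in resilient and 207 to 413 CPM in susceptible libraries, against 4962 to 5377 CPM in input. Of the 37, 16 had a mean of at least 1 CPM and 11 had 0 counts in at least 1 TRAP library. The 1 member that was lower was mt-Td, a transfer RNA at 0.14 ± 0.05 CPM against 0.07 ± 0.04 CPM. The unadjusted p of mt-Td was 0.0534 to 0.152 with non-defeated library 9 or 11, resilient library 7 or 8 or susceptible library 4 or 10 left out. For these lists the average over both outcomes describes neither group.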

How the data were processed

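The authors deposited a table of raw counts of reads per gene (39017 genes, 14 libraries). Per the labels and the study's methods, RNA from affinity-purified polysomes was amplified, made into libraries that do not keep strand and sequenced as single reads. The submitters' processing notes name STAR 2.5.3a and HTSeq. Every column was matched to a sample by name (0 unmatched). Each library came from 1 mouse, so p-values measure the spread between mice.

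The fit used edgeR 4.0.16 under R 4.3.3 (filterByExpr, TMM, quasi-likelihood test, 1 fit over all 14 libraries, each defeated group weighted 0.5, Benjamini-Hochberg adjustment over 21298 genes). CPM were scaled by TMM, SE and 95% intervals come from the same fit, and the procedure was tested on simulated data. Annotation was GENCODE release 21 (GRCm38), with promoters from RefSeq GRCm38.p6. Genes without an annotation entry held 0.824% of counts and stayed in.

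Named genes were up to 12 protein-coding and 3 other genes per direction (mean of at least 1 CPM, unadjusted p under 0.05, no overlap, smallest p), the first member of each list and the 2 with the smallest p per direction. List members beyond these complete a count and were chosen after their values were seen. Members and lists were chosen with earlier results of these data known. Alternatives were a likelihood ratio test, DESeq2 1.42.0, RLE factors, other filters, TRAP libraries alone, 1 pooled defeated group, covariates, and each library left out.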

Additional observations from a re-analysis of the deposited data

Results flagged for a closer look

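In groups of 4 libraries, 1 library stood far from the other 3 for 6 of the 77 genes looked at, each in 2 such groups (154 groups). Chance alone flags about 1 in 20 groups. The measure is the gap to the nearest other library divided by the range of the group. For Klf2 this ratio was 0.856, with resilient library 8 at 10 CPM and the others at 5.41 to 5.91 CPM. For Pvalb it was 0.866, with non-defeated library 9 at 1265 CPM and the others at 1507 to 1548 CPM. Tcf7l2, a transcription factor of thalamic neurons, gave 0.861, with resilient library 7 at 132 CPM and the others at 2.95 to 5.02 CPM.

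Resilient library 3 was the lowest of its group for the remaining 3 genes. The ratio was 0.946 for Ttr (146 CPM against 362 to 381 CPM), 0.926 for Acan (2.04 CPM against 2.52 to 2.57 CPM) and 0.832 for Hif1a (47.7 CPM against 68.5 to 73.7 CPM).

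Among the same 77 genes, the effect of defeat differed between the outcomes by the test of the difference itself for 3, against 403 of all 21298 genes tested. Susceptible minus resilient was 1.76 for Hba-a1 and 1.75 for Hba-a2 on the log2 scale (edgeR adjusted p = 0.0411 for both, not separate measurements, since the genes share sequence), and 0.63 for Cplx2 (edgeR adjusted p = 0.0396).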

How the results depend on the processing

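With the quasi-likelihood test no gene passed the adjusted threshold in any alternative fit of the TRAP comparison that left out 1 library. The likelihood ratio test gave 22 higher and 8 lower genes and DESeq2 gave 10 and 3. At an unadjusted p under 0.05 the higher and lower counts were 405 and 328 in the 11 TRAP libraries alone, 359 and 158 in the same 11 with the 7 defeated libraries as 1 group, 1410 and 2217 with other cell type markers to Pvalb as a covariate, and 1138 and 1173 with endothelial markers other than Bsg to Pvalb, an alternative chosen after seeing the data. With 1 library left out in turn they ranged from 509 to 863 and from 323 to 766. Genes with every defeated library above then numbered 72 to 135 and below 36 to 85, since fewer libraries had to separate, and with at least 10 counts in every library 16 genes lay below. Of the named genes with an unadjusted p under 0.05, 1 changed sign: Folr1 was at -0.0628 with the endothelial covariate without Bsg. Some named genes that did not pass that threshold, such as Pdgfrb (-0.95 to 0.31) and Slc17a7 (-0.33 to 0.10), changed sign between settings. The cause of the other differences was not tested. No paired analysis was possible because the groups share no replicate numbers. Scarce transcripts rest on few reads (Pglyrp1 on 23 to 152 counts a library), and a typical 95% interval of 0.32 to either side limits what could be seen in single genes.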

Other observations

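Some genes that DESeq2 placed under an adjusted p of 0.05 fell outside the rule for named genes and are given here, chosen after their values were seen. Tdgf1, a co-receptor of Nodal signaling, had the smallest unadjusted p of all genes in the edgeR test (2.53e-05) but was scarce, at 0.0697, 0.108, 0.0874 and 0.0842 CPM in non-defeated mice and 0.231 to 0.442 CPM in defeated mice. Its log2 difference was 1.99 (SE 0.33, edgeR adjusted p = 0.314), 1.92 in resilient and 2.07 in susceptible mice. All 7 defeated libraries lay above all controls, and the 3 input libraries held 0.382 to 0.614 CPM.

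Ctla2a, a cathepsin inhibitor-like gene, was at 0.363, 0.380, 0.393 and 0.800 CPM in non-defeated mice and ranged from 0.394 to 3.08 CPM in defeated mice, with the 3 susceptible libraries highest at 1.95 to 3.08 CPM (log2 difference 1.53, SE 0.39). Greb1l, a relative of the estrogen-responsive GREB1, was at 1.94, 1.27, 2.94 and 2.92 CPM in non-defeated mice and 0.501 to 1.71 CPM in defeated mice (log2 difference -1.32, SE 0.27), with resilient library 8 inside the controls' range.

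Foxd4, a forkhead factor, rested on single libraries. It was at 16.6 CPM in non-defeated library 6 and 13.2 CPM in non-defeated library 9, at 0.0514 to 0.163 CPM in every other TRAP library, and at 92.3 CPM in 1 of the 3 input libraries against 0.0235 and 0.0425 CPM in the others. The DESeq2 adjusted p of 0.0008206 for Foxd4 thus came with 2 controls at the level of the defeated libraries.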
